A study of Mus musculus with 8 samples.

Results

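The matrix metalloproteinases, the ADAMTS proteases, the ADAMTS-like proteins and the tissue inhibitors of metalloproteinases (TIMPs) were taken from RNA-Seq counts of mouse aortic smooth muscle cells (MASMCs) by gene symbol. The rule kept every symbol that reads Mmp followed by a number, with or without a final a or b. It also kept Adamts or Adamtsl followed by a number, and Timp followed by 1 to 4. It found 47 of the 18533 gene symbols counted, of which 21 were MMP, 17 ADAMTS, 5 ADAMTS-like and 4 TIMP genes. The symbols alone set the membership, although the families were picked with earlier results of these data known.

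The cells were primary cultures from the aortas of male WT mice and of male *Hint1*-/- mice aged 4 to 6 weeks, with 4 samples of each genotype. *Hint1* encodes a histidine triad nucleotide-binding protein, and in *Hint1*-/- mice the deletion is carried by all cells and not by smooth muscle alone. The adventitia and the endothelium were removed before collagenase digestion, and the study's methods name thoracic aortas in one place and whole aortas in another. All 8 samples, WT included, received PDGF-BB, a growth factor that drives smooth muscle cells out of their contractile state, at 20 ng/mL for 24 hours. No sample without PDGF-BB was analysed here, so the data compare genotypes under PDGF-BB and hold no measure of the response to it. The sources do not state whether the 4 samples of a genotype came from separate mice or cultures. The p-values therefore set the genotype difference against the spread between these samples, which may be technical.

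MMPs are zinc-dependent endopeptidases that cleave collagens, elastin, proteoglycans and many secreted proteins, and most are made as inactive proenzymes that are activated by removal of a propeptide. ADAMTS proteases are secreted relatives with thrombospondin repeats that cut large proteoglycans such as versican and aggrecan or trim procollagens, while the ADAMTS-like proteins share the accessory domains and lack the protease domain. TIMPs bind the active site of MMPs and block it, and TIMP-3 also inhibits several ADAM and ADAMTS enzymes. In the aortic wall the balance of these proteins governs the turnover of the elastic and collagen fibres that bear pressure.

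Each sample held 20778077 to 20888041 estimated counts, and the labels give no sequencing batch. *Hint1* lay between 2272 and 2364 counts in WT and between 713 and 778 in *Hint1*-/- samples, which was −1.64 as log2 fold change (SE 0.0373, adjusted p = 6.77e-16), so transcripts of the gene remained countable in every sample labelled *Hint1*-/-. Smooth muscle markers summed to 2528 to 2678 CPM (counts scaled to library size) in WT and 2342 to 2435 CPM in *Hint1*-/- samples. At the adjusted p 4 of the 8 were lower and 1 higher, and *Myh11* (−1.54 as log2 fold change) and *Cnn1* (−1.12), both contractile genes, were past the fold limit. None of 8 macrophage markers was at 0. Their sum was 2292 to 2619 CPM in WT and 1864 to 2001 CPM in *Hint1*-/- samples, and 7 of the 8 were lower at the adjusted p while none passed the fold limit of 1.5. The 8 fibroblast markers summed to 1743 to 1818 CPM in WT and 2634 to 2770 CPM in *Hint1*-/- samples, mostly from *Dcn* at 1112 and 1975 CPM. Their directions were mixed: 3 were higher and 2 lower at the adjusted p, *Dcn* and *Lum* were called higher and *Dpt* lower (−0.79), and the median log2 fold change was 0.03. The 8 Schwann cell markers summed to 50.4 to 56.8 and 12.9 to 15.3 CPM, with 7 called lower. Chondrocyte markers summed to 21.2 to 23.8 CPM in WT and 50.2 to 52.5 CPM in *Hint1*-/- samples, with 2 of 4 tested called higher and 1 lower. Cardiac muscle markers summed to 1.91 to 2.69 and 5.83 to 9.18 CPM, with *Myh6*, *Myl7* and *Tnnt2* called higher of 4 tested. Endothelial markers summed to 5.58 to 8.13 and 5.24 to 7.68 CPM, and none of 5 tested passed the adjusted p. The part of these differences in the results that follow was not tested, and in such bulk samples fewer cells of a type and less RNA per cell cannot be told apart.

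Protease and inhibitor genes moved in both directions. A gene was called changed when its Benjamini-Hochberg adjusted p in the quasi-likelihood test of edgeR, taken over all 13535 tested genes, was below 0.05 and its fold change was over 1.5. Of the 38 members with enough counts to be tested, 8 were called, or 21.1%, against 2.83% of all tested genes. The higher genes in *Hint1*-/- MASMCs were *Mmp12*, *Mmp3*, *Mmp8* and *Adamts9*, where 1.34% of all genes were called higher. The lower genes were *Mmp9*, *Mmp17*, *Adamts8* and *Adamtsl1*, where 1.49% of all genes were called lower. No TIMP was called. The median log2 fold change of the 38 members was −0.04, and that of all tested genes was 0.000306.

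By the adjusted p alone, without a limit on fold, 22 members (57.9%) differed between the genotypes, against 21.5% of all tested genes. They split into 11 higher and 11 lower, where the shares over all genes were 11.2% and 10.2%. The groups did not overlap in 22 of the 38 members, compared with 23.0% of all tested genes. The 14 members that passed the adjusted p within the fold limit rose by 1.1 to 1.4 fold or fell to between 0.686 and 0.916 of the WT level. The remaining 16 had log2 fold changes between −0.382 and 0.246 and adjusted p values between 0.088 and 0.959, and 15 of them overlapped between genotypes.

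**Figure D1:**
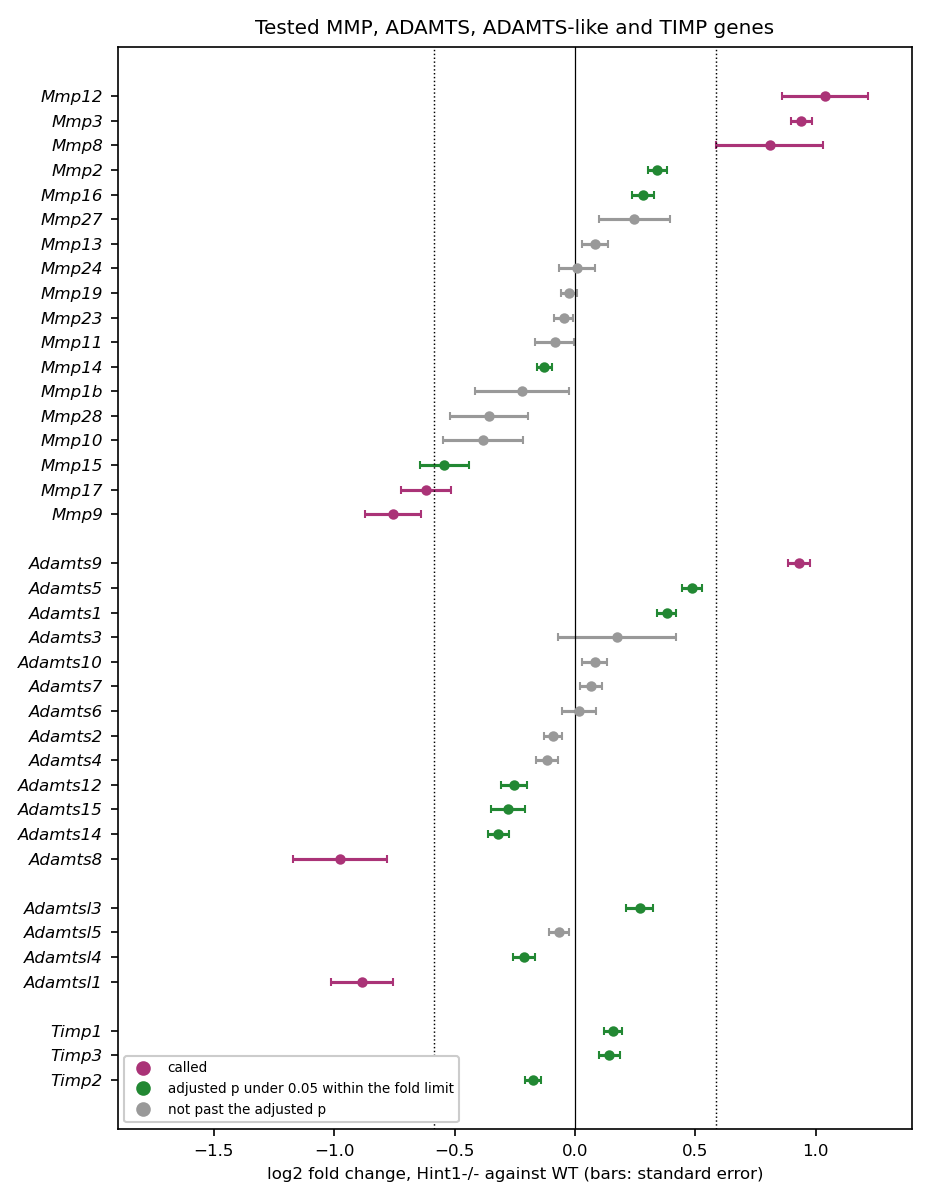
Log2 fold change of *Hint1*-/- against WT MASMCs (x axis) for the 38 tested members, grouped by family and ordered within each, with bars for 1 standard error and dotted lines at a fold of 1.5. The 8 called members lie between −0.98 (*Adamts8*) and 1.04 (*Mmp12*), and the 3 TIMPs lie between −0.17 and 0.16.

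The stromelysin *Mmp3*, an enzyme with broad activity on proteoglycans, laminin and fibronectin that also activates other proMMPs, was the most abundant protease of the set. It counted 37713, 33510, 37406 and 37329 in WT replicates 1 to 4 and 68958, 75047, 67502 and 66465 in *Hint1*-/- replicates 1 to 4. Every *Hint1*-/- sample was far above every WT sample, and WT replicate 2 was the lowest of all 8. Its level rose from 1746 ± 99.7 CPM to 3350.0 ± 192 CPM (SD, n = 4 each), a 1.92-fold increase (log2 fold change 0.94, SE 0.0448, adjusted p = 2.16e-11). Fibroblasts also make *Mmp3*. The 8 fibroblast markers summed to 1743 to 1818 CPM in WT and 2634 to 2770 CPM in *Hint1*-/- samples, mostly from *Dcn*. Of these markers, 3 were higher and 2 lower at the adjusted p, and the part of those cells was not tested. *Mmp3* lies on chromosome 9 of mm10, from 7445822 to 7455975.

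*Mmp12*, the macrophage elastase, counted 66, 130, 204 and 171 in WT and 256, 322, 292 and 295 in *Hint1*-/- samples. The groups did not overlap, but the WT samples spread more widely than the gap to the other genotype, with replicate 1 lowest. The level rose from 6.83 ± 2.84 CPM to 14.0 ± 1.32 CPM (SD, n = 4 each), or 1.04 as log2 fold change (SE 0.180, adjusted p = 0.00033). Without WT replicate 1 the log2 fold change was 0.80, and without WT replicate 3 it was 1.26. The gene is known from macrophages, whose 8 markers summed lower in *Hint1*-/- samples, and the part of those cells was not tested. *Mmp12* lies on chromosome 9 from 7344381 to 7369499, and its exons share positions with those of *Mmp1b* on the other strand.

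*Mmp8*, a collagenase best known from neutrophils, was near the limit of what could be tested. It counted 15, 12, 18 and 14 in WT and 31, 23, 25 and 24 in *Hint1*-/- samples, with every *Hint1*-/- sample above every WT sample. On the log2 scale the change was 0.81 (SE 0.223, adjusted p = 0.0134). The call was lost without *Hint1*-/- replicate 1 (adjusted p = 0.0534) and in DESeq2 (adjusted p = 0.0513). The gene lies on chromosome 9 from 7558456 to 7568485.

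*Mmp3*, *Mmp12* and *Mmp8* belong to a cluster of 8 MMP genes within 309 kb of chromosome 9, from 7272514 to 7581885. The order along the chromosome was *Mmp13*, *Mmp12*, *Mmp1b*, *Mmp3*, *Mmp1a*, *Mmp10*, *Mmp8* and *Mmp27*. Of the 7 that were tested, these 3 were called, all higher, and the other 4 did not pass the adjusted p. Of all tested genes, 1.34% were called higher and 21.5% passed the adjusted p. *Mmp13*, a collagenase, counted 1934, 1638, 1757 and 1837 in WT and 1772, 1814, 2105 and 1842 in *Hint1*-/- samples. These groups overlapped, and the log2 fold change was 0.08 (adjusted p = 0.305). *Mmp10*, the second stromelysin and the closest relative of *Mmp3*, counted 81, 74, 60 and 116 in WT and 69, 58, 64 and 61 in *Hint1*-/- samples (log2 fold change −0.38, adjusted p = 0.119). Of the 50-base stretches of *Mmp3* transcripts, 8.39% also occur in other genes, mainly *Mmp10*, and for *Mmp10* the share was 8.37%, so part of the reads of these paralogs can be divided between them and the low counts of *Mmp10* are uncertain.

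Promoters of the cluster were read to see which carry the 7-base element TGANTCA, the core bound by AP-1, a factor that growth factor signals activate and that has long been linked to MMP transcription. The following stretches are the 100 bases upstream of the RefSeq transcription start in GRCm38.p6, the assembly of mm10, on the strand of the gene, with the element in capitals. The first 3 belong to the called genes and the last pair to the 2 neighbours described above.
Mmp3, chr9:7445722-7445821: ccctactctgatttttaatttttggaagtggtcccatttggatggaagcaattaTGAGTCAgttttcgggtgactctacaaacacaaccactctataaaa
Mmp12, chr9:7347274-7347373: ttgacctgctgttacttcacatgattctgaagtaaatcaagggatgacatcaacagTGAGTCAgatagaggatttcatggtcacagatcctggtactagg
Mmp8, chr9:7558329-7558428: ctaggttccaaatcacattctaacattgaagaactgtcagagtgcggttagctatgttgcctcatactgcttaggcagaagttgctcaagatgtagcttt
Mmp10, chr9:7502242-7502341: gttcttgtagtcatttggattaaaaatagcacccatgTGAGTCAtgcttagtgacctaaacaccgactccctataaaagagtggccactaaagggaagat
Mmp13, chr9:7272414-7272513: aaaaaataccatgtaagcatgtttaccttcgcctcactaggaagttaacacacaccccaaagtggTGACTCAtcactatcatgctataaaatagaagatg

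The element began at −46 from the start in *Mmp3*, −44 in *Mmp12*, −63 in *Mmp10* and −35 in *Mmp13*. The *Mmp12* stretch is that of the second of its 2 starts, and neither the first *Mmp12* start nor the *Mmp8* promoter held the element. *Mmp1b* held it at −93. The element reads the same on both strands. Among all 32851 promoters of 300 bases, 7.81% held it. Of the 35 RefSeq promoters of members, 6 held the element. Those 35 belonged to 33 members, of which 25 were tested. By gene, with any start sufficing, 5 of those 25 held the element. *Mmp3* and *Mmp12* among them were called, and *Mmp10*, *Mmp13* and *Mmp1b* were not. Genes with the element were found on both sides of the threshold, and the part of the element in these changes was not tested. The called lower genes *Mmp9*, *Mmp17*, *Adamts8* and *Adamtsl1* had no promoter in the set read, so every called member covered was a higher one. The AP-2 element GCCNNNGGC also reads the same on both strands and overlapped TGANTCA in none of the members' promoters. It was in 16.6% of all promoters and in 10 of the members' 35. By gene it was in 8 of the 25, including *Adamts9* alone among the 4 called members with a promoter. A match of letters is a description and does not show that a factor was bound.

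**Figure D2:**
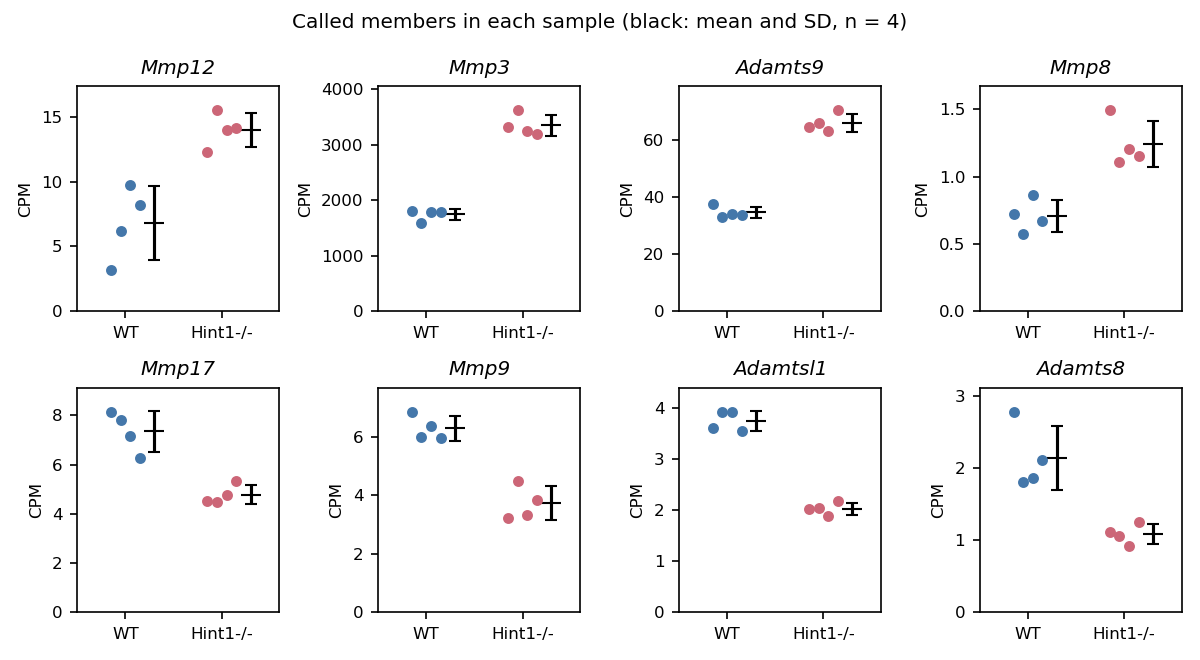
Levels (CPM, y axis from 0) of the 8 called members in the 4 WT and 4 *Hint1*-/- samples, with 1 point for each sample and bars for the mean and SD. In each panel the genotypes do not overlap, and *Mmp12* shows a wide spread among WT samples, from 66 to 204 counts.

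The gelatinases, which degrade denatured collagen and basement membrane collagen, moved in opposite directions. *Mmp9* counted 143, 126, 133 and 124 in WT and 67, 93, 69 and 80 in *Hint1*-/- samples. All 4 *Hint1*-/- values were under the lowest WT value. The level fell from 6.29 ± 0.421 to 3.72 ± 0.583 CPM (SD, n = 4 each), or −0.76 as log2 fold change (SE 0.116, adjusted p = 9.2e-05). *Mmp9*, which macrophages also make and whose direction matched that of the macrophage markers, lies on chromosome 2 from 164940780 to 164955850, and the part of those cells was not tested.

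*Mmp2*, the gelatinase that smooth muscle cells and fibroblasts make constitutively, counted 3569, 3392, 3501 and 3216 in WT and 4567, 4276, 4175 and 4185 in *Hint1*-/- samples. The genotypes did not overlap. It rose from 164 ± 7.44 to 207 ± 9.03 CPM (SD, n = 4 each), or 0.34 as log2 fold change (SE 0.0391, adjusted p = 3.23e-06), within the fold limit. *Mmp2* was far more abundant than *Mmp9*: per kilobase of transcript, *Mmp2* stood at 53.1 and *Mmp9* at 1.98 CPM in WT.

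Membrane-anchored MMPs act at the cell surface, and MMP-14 (MT1-MMP) activates proMMP-2. *Mmp14* counted 9185, 8859, 8670 and 8669 in WT and 8151, 7969, 7920 and 8119 in *Hint1*-/- samples, all below WT. The shift was small (log2 fold change −0.13, SE 0.0316, adjusted p = 0.00701). *Mmp17*, a membrane MMP held by a glycolipid anchor and expressed by vascular smooth muscle, counted 170, 164, 150 and 131 in WT and 94, 93, 99 and 111 in *Hint1*-/- samples, without overlap. It fell from 7.35 ± 0.826 to 4.78 ± 0.393 CPM (SD, n = 4 each), or −0.62 as log2 fold change (SE 0.104, adjusted p = 0.000229). The value lay close to the fold limit and was inside it at −0.57 without WT replicate 1. *Mmp17* lies on chromosome 5 from 129584169 to 129611099.

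*Mmp15*, another membrane MMP, stood just inside the fold limit. Its counts were 160, 157, 168 and 170 in WT and 121, 126, 111 and 88 in *Hint1*-/- samples, which did not overlap. On the log2 scale the change was −0.54 (SE 0.102, adjusted p = 0.000731), and among the alternatives it was called only without *Hint1*-/- replicate 2, at −0.61. *Mmp16* was higher at the adjusted p (log2 fold change 0.28, adjusted p = 0.000129). *Mmp24*, the last tested membrane MMP, did not pass the adjusted p.

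Among the ADAMTS proteases the largest rise was that of *Adamts9*, an enzyme that cleaves versican and aggrecan. It counted 785, 695, 713 and 706 in WT and 1340, 1364, 1315 and 1466 in *Hint1*-/- samples, with a wide gap between genotypes. The level rose from 34.7 ± 2.03 to 66.1 ± 3.20 CPM (SD, n = 4 each), which was 1.91-fold (log2 fold change 0.93, SE 0.0464, adjusted p = 3.87e-11). The gene lies on chromosome 6 from 92772699 to 92943492, and the annotation places exons of *A730049H05Rik* and *Gm15737* on the other strand at shared positions.

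The other proteoglycan-cleaving enzymes that passed the adjusted p upward changed less. *Adamts5*, a major aggrecanase, counted 5301, 5536, 5275 and 5160 in WT and 7187, 7517, 6862 and 8021 in *Hint1*-/- samples (log2 fold change 0.49, SE 0.0419, adjusted p = 9.71e-08). *Adamts1*, an aggrecanase and versicanase that is abundant in the aortic wall, counted 3464, 3434, 3453 and 3316 in WT and 4416, 4399, 4113 and 4741 in *Hint1*-/- samples (log2 fold change 0.38, SE 0.0390, adjusted p = 8.38e-07). Neither gene overlapped between genotypes. *Adamts4*, the other classic aggrecanase, had a log2 fold change of −0.12 and did not pass (adjusted p = 0.088), although its groups did not overlap.

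*Adamts8*, an ADAMTS protease first described as an inhibitor of angiogenesis, fell at low counts. It counted 58, 38, 39 and 44 in WT and 23, 22, 19 and 26 in *Hint1*-/- samples, so every *Hint1*-/- sample was below every WT sample. The level fell from 2.14 ± 0.446 to 1.08 ± 0.140 CPM (SD, n = 4 each), or −0.98 as log2 fold change (SE 0.196, adjusted p = 0.00125). *Adamts8* lies on chromosome 9 from 30942562 to 30963838, and *Gm29724* is annotated antisense to its exons. Its neighbour *Adamts15*, from 30899155 to 30922452, was also lower (log2 fold change −0.28, adjusted p = 0.00709). Both were grouped here with the proteoglycan-cleaving enzymes. Of 6 tested in that group, 3 were higher and 2 lower at the adjusted p, where the shares over all genes were 11.2% and 10.2%.

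The procollagen N-proteinases remove the amino-terminal propeptide of fibrillar procollagens. *Adamts14* was lower (log2 fold change −0.32, adjusted p = 2.14e-05). *Adamts2*, the main enzyme of the group and the most abundant ADAMTS gene, had a log2 fold change of −0.09 (adjusted p = 0.0906), and *Adamts3* did not pass either. *Adamts12* was lower at −0.25 (adjusted p = 0.00261). *Adamts7*, an enzyme known to cleave COMP and to act on smooth muscle migration, counted 711, 668, 677 and 659 in WT and 706, 671, 701 and 746 in *Hint1*-/- samples, with overlap (log2 fold change 0.07, adjusted p = 0.329). *Adamts6* and *Adamts10* did not pass the adjusted p.

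Of the ADAMTS-like genes, whose products lie in the matrix and bind fibrillin microfibrils in several cases, *Adamtsl1* was called lower. It counted 75, 82, 82 and 74 in WT and 42, 42, 39 and 45 in *Hint1*-/- samples, and the genotypes were tight and separate. The level fell from 3.74 ± 0.199 to 2.02 ± 0.119 CPM (SD, n = 4 each), or −0.88 as log2 fold change (SE 0.130, adjusted p = 6.03e-05). The gene spans 85514172 to 86428385 on chromosome 4. *Adamtsl3* was higher at 0.27 (adjusted p = 0.00147) and *Adamtsl4* lower at −0.21 (adjusted p = 0.00194), both within the fold limit, and *Adamtsl5* did not pass.

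The 3 tested inhibitors were among the 4 most abundant members per transcript length, and none passed the fold limit. *Timp1*, which inhibits most secreted MMPs, counted 64733, 59936, 65347 and 62375 in WT and 72503, 72380, 67664 and 67106 in *Hint1*-/- samples, without overlap. It shifted by 0.16 (log2, SE 0.0384, adjusted p = 0.00554). *Timp2*, which takes part in the activation of proMMP-2 by MMP-14 as well as inhibiting MMPs, counted 38266, 38107, 36988 and 36016 in WT and 33976, 33018, 32076 and 32293 in *Hint1*-/- samples, also without overlap. It shifted by −0.17 (log2, SE 0.0331, adjusted p = 0.000768).

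*Timp3*, the TIMP that is bound to the matrix, counted 16737, 18227, 16271 and 16095 in WT and 18941, 18590, 17066 and 19155 in *Hint1*-/- samples, and the genotypes overlapped. It shifted by 0.14 (log2, SE 0.0426, adjusted p = 0.0217). The adjusted p rose above 0.05 in 5 of the 8 fits that left out 1 sample, reaching 0.0827 without WT replicate 3, 0.0708 without *Hint1*-/- replicate 4, 0.0688 without *Hint1*-/- replicate 1, 0.0598 without *Hint1*-/- replicate 2 and 0.0551 without WT replicate 4. *Timp4* was listed at 0 counts in every sample but *Hint1*-/- replicate 3, which had 1 count.

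To compare levels between genes, CPM was divided by the length of the principal transcript. On this scale *Timp1* was highest in both genotypes, at 3418 ± 140 in WT and 3817 ± 167 CPM per kilobase in *Hint1*-/- MASMCs (SD, n = 4 each). *Mmp3* followed at 969 ± 55.3 and 1860.1 ± 106, then *Timp2* at 482 ± 13.3 and 427 ± 11.8. The next pair, *Timp3* at 170 ± 9.41 and *Mmp14* at 163 ± 4.66 in WT, lay within their spread of each other in WT. *Mmp2* and *Adamts2* both stood at 53.1 in WT, and in *Hint1*-/- MASMCs *Mmp2* stood at 67.4 ± 2.94 and *Adamts2* at 49.9 ± 2.00. Of the 8 called members, only *Mmp3* was among the 10 highest, and *Adamts9* at 4.33 in WT was next among the called. *Mmp8* was lowest of the called in WT at 0.291 CPM per kilobase, with *Adamtsl1* at 0.477 and *Adamts8* at 0.590.

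**Figure D3:**
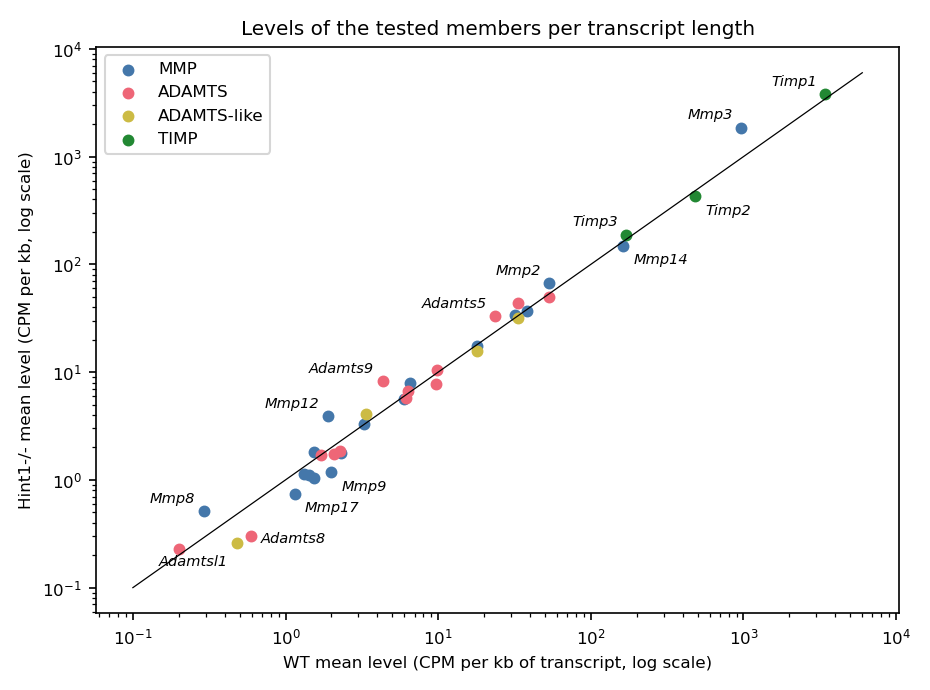
Mean level per kilobase of principal transcript in WT (x axis, log scale) against *Hint1*-/- MASMCs (y axis, log scale) for the 38 tested members, coloured by family, with the line of equal levels. *Timp1* (3418 in WT), *Mmp3* (969) and *Timp2* (482) lead, and *Mmp3* lies above the line at 1860.1 in *Hint1*-/- MASMCs.

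Over the family, MMP transcripts added up to 2636 ± 112 CPM in WT against 4256 ± 193 CPM in *Hint1*-/- MASMCs (SD, n = 4 each), and the samples ranged from 2474 to 2732 CPM and from 4104 to 4530 CPM. This sum was mostly *Mmp3*, which made up 66.2% of it in WT and 78.7% in *Hint1*-/- MASMCs. Without *Mmp3* the genotypes stood at 890 ± 22.2 CPM (WT) and 906 ± 10.2 CPM (*Hint1*-/-), with overlapping samples. *Mmp14* made up 16.1% of the family sum in WT and 9.11% in *Hint1*-/- MASMCs, and *Mmp2* 6.21% and 4.87%. These shares have *Mmp3* in their denominator.

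ADAMTS transcripts added up to 1034 ± 21.5 CPM (WT) and 1179 ± 45.1 CPM (*Hint1*-/-; SD, n = 4 each). *Adamts2* made up 37.3% of them in WT and 30.7% in *Hint1*-/- MASMCs, *Adamts5* 24.6% and 30.2%, and *Adamts1* 15.8% and 18.1%. The ADAMTS-like sum was 166 ± 5.38 and 157 ± 6.40 CPM. TIMP transcripts added up to 5610 ± 118 CPM (WT) and 5842 ± 211 CPM (*Hint1*-/-), with *Timp1* at 53.8% and 57.7% and *Timp2* at 31.8% and 27.1% of it. Samples of the genotypes overlapped in the TIMP sum (5485 to 5743 CPM in WT, 5616 to 6049 CPM in *Hint1*-/-) and in the ADAMTS-like sum. They did not overlap in the ADAMTS sum. These sums are descriptions and were not tested.

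**Figure D4:**
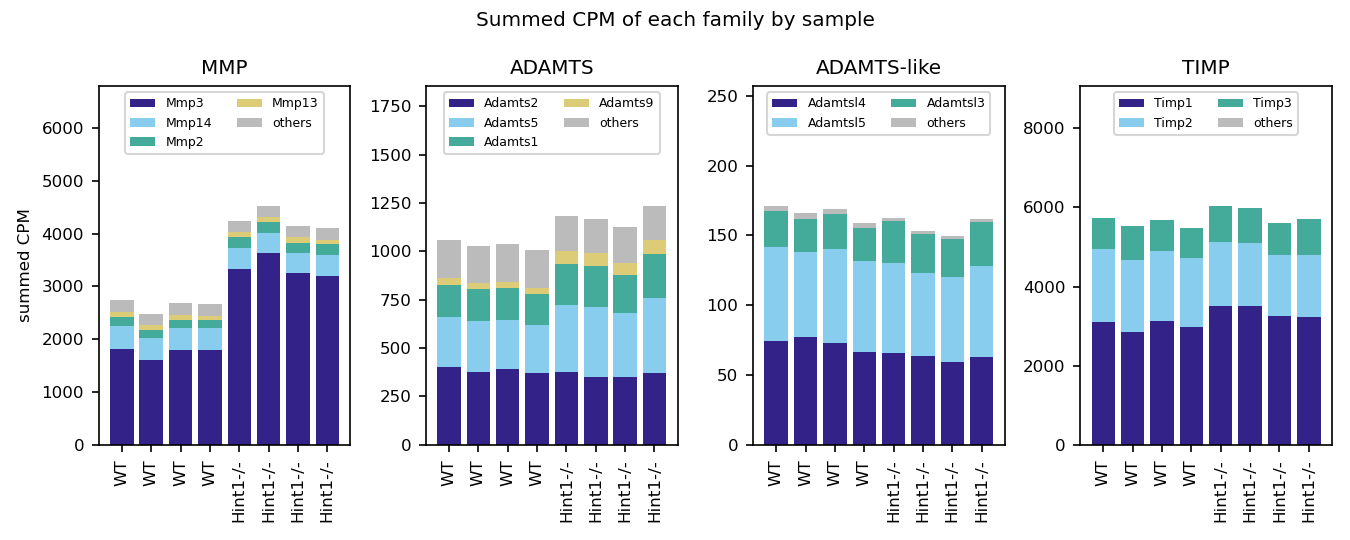
Summed CPM (y axis from 0) of each family in the 4 WT and 4 *Hint1*-/- samples, split by the members that contribute most. The MMP sum is higher in *Hint1*-/- samples (4104 to 4530 CPM against 2474 to 2732 CPM), and *Mmp3* is the largest block in every bar of the MMP panel.

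The untested members had very low counts. *Mmp1a*, *Mmp21* and *Mmp25* did not exceed 5 counts in any sample, *Adamts13*, *Adamts17*, *Adamts19* and *Adamts20* did not exceed 14, and *Adamtsl2* did not exceed 4. *Adamts19* counted 3, 9, 10 and 12 in WT and 2, 3, 5 and 2 in *Hint1*-/- samples, and the genotypes overlapped. Pooled, this was 34 against 12 counts, a ratio of *Hint1*-/- to WT of 0.356 (95% exact interval 0.168 to 0.704, for counting error only). That interval leaves out the spread between samples. In the edgeR fit without a filter on low counts, which includes *Adamts19*, the same 8 members were called and *Adamts19* was not. For the other untested members with a count in both genotypes, the same interval of the pooled ratio held 1, and a difference was not detectable at this depth. Among the tested MMPs not yet described, *Mmp1b*, *Mmp11*, *Mmp19*, *Mmp23*, *Mmp27* and *Mmp28* did not pass the adjusted p. *Mmp23* was the most abundant of these, at 38.4 CPM per kilobase in WT and 37.2 in *Hint1*-/- MASMCs. *Mmp1b* shares 11.8% of its 50-base stretches with other genes, mainly *Mmp1a*, so the split of reads between them is uncertain.

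Other genes of extracellular proteolysis were compared from 3 lists chosen with earlier results known. Of 13 tested activators and regulators of MMPs, which include the plasminogen activators, furin-type convertases and surface inhibitors, 6 were higher and 3 lower at the adjusted p, and none was called. The shares over all tested genes were 21.5% at the adjusted p and 2.83% called, and they are the background for each of the 3 lists. The highest of the 13 was *Pcsk5*, a proprotein convertase, at 0.42 (adjusted p = 0.00109). *Reck*, a membrane-anchored MMP inhibitor, was at 0.23 and *Bsg*, an inducer of MMP expression, at 0.21, while *Plau*, the urokinase gene, was at −0.16 on the log2 scale.

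Of 16 tested ADAM, tolloid and pappalysin genes, 4 were higher and 2 lower at the adjusted p (21.5% of all tested genes passed it), and 1 was called. The called one was *Pappa*, a metalloproteinase that cleaves IGF-binding proteins. It fell from 7.43 ± 0.683 to 3.77 ± 0.277 CPM (SD, n = 4 each) (log2 fold change −0.98, adjusted p = 1.23e-06).

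Of 18 tested substrates of these enzymes, 6 were higher and 8 lower at the adjusted p, and 6 were called, against 21.5% and 2.83% of all tested genes. *Col2a1*, cartilage collagen, was higher at 3.41, and the small proteoglycans *Lum* and *Dcn* at 0.88 and 0.83. The matrix protein *Comp* was higher at 0.79, with 15 to 42 counts. *Dcn* and *Lum* are also 2 of the 8 fibroblast markers, and *Col2a1*, *Comp* and *Acan* are also chondrocyte markers. The calls of these genes repeat the marker results given above. *Fmod*, another small proteoglycan, was lower at −0.59 and *Acan*, the aggrecan core protein, at −1.84 with 2 to 23 counts. *Vcan*, the versican gene, was at 0.25, while the collagen genes *Col1a1* and *Col1a2* were at −0.17 and −0.19 on the log2 scale. Collagen genes of the list did not share a direction: *Col3a1* was higher at 0.25 (adjusted p = 0.000125), and *Col4a1* and *Col4a2* were at −0.18 and −0.20.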

How the data were processed

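RNA-Seq of 4 WT and 4 *Hint1*-/- MASMC samples, all treated with PDGF-BB, was analysed. The authors deposited expected counts, estimated per gene symbol for each sample and not normalized. The study's methods name HISAT2 and mm10, and the submitters' processing notes list Bowtie2 and RSEM 1.3.1. Whether counting used strand is not given in the sources used here. Values were rounded to whole numbers. Genes passing filterByExpr (13535 of 18533 symbols) were normalized by TMM and compared with the quasi-likelihood test of edgeR 4.0.16 (R 4.3.3), two-sided, with genotype as the only term and Benjamini-Hochberg adjustment. The SE is the size of the log2 fold change divided by the square root of F. On simulated data with 200 of 13456 genes changed 2-fold, edgeR recovered 97.5% with 7 false calls. Every member of the symbol rule was named. The members and the lists of other genes and markers were chosen with earlier results of these data known. Positions and transcript lengths came from GENCODE M21 and promoters from RefSeq. Replicate numbers were not used to pair samples. Alternatives were RLE and upper-quartile normalization, 2 filters on low counts, a replicate block, DESeq2 1.42.0, limma-voom, each sample left out and no fold limit. Depth was 20778077 to 20888041 counts per sample, with no molecular identifiers described. Within-genotype pairs of samples differed by more than counting noise (chi-square per gene 2.09 to 5.50). *Mmp7*, *Mmp20*, *Adamts16* and *Adamts18* were not analysed here.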

Additional observations from a re-analysis of the deposited data

Results flagged for a closer look

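In 78 groups, the 38 tested members and *Hint1* in each genotype, the gap between the most extreme sample and its nearest neighbour was set against the range of the group. It passed the 95% critical value in 2 groups, where chance gives about 3.9. *Mmp3* in WT had a ratio of 0.9093, because WT replicate 2 had 33510 counts and the other 3 samples 37329 to 37713. *Mmp28* in WT had a ratio of 0.8735, because WT replicate 3 had 83 counts and the other 3 samples 69 to 71.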

How the results depend on the processing

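The 8 calls were all kept under RLE and upper-quartile normalization, both filters, the replicate block and limma-voom. DESeq2 kept 7 and lost *Mmp8*. With 1 sample left out, 7 to 9 members were called, 3 to 4 higher and 3 to 5 lower, and 6 to 7 genes of the other lists. Without a fold limit, 22 members differed, 11 higher and 11 lower, and 29 genes of the other lists. Direction turned for 2 genes that were near 0 and not called: *Adamts6* (0.02) ranged from −0.017 to 0.061 with 1 sample left out, with −0.012 without WT replicate 3 and −0.017 without WT replicate 4. *Mmp24* (0.0074) ranged from −0.037 to 0.078, and was −0.0036 with upper-quartile normalization, −0.011 without WT replicate 2, −0.037 without WT replicate 3, −0.017 without *Hint1*-/- replicate 1 and −0.0081 without *Hint1*-/- replicate 2. The cause was not tested. *Mmp10* passed the adjusted p without WT replicate 3 (−0.51, adjusted p = 0.0362) and *Mmp28* without *Hint1*-/- replicate 4 (−0.51, adjusted p = 0.0402). Pairing was examined on the deviations of each sample from the mean log2 CPM of its genotype. These deviations correlated at −0.045 to 0.0814 between same-numbered samples, and 3 of 8 samples correlated best with their own number. Correlations this weak show no pairing by number and cannot exclude one. With the replicate block 8 members were called, all 8 shared, and 382 of all genes against 383. Low counts, such as the 12 to 31 of *Mmp8*, limit precision. All samples were treated with PDGF-BB, and genotype cannot be told apart from any difference between the cultures.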
